A study of Mus musculus with 167 samples.

Results

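The gene Myc and 9 genes of nucleolar ribosome production or growth were followed in single lymphoid-primed multipotent progenitors (LMPPs), early blood progenitors of the bone marrow that lean towards the lymphoid fates. The 9 were Npm1, Dkc1, Nop56, Nop58, Fbl, Ncl, Nolc1, Odc1 and Polr1b. They were taken by name from the 38924 gene rows of the deposited table, and all 10 were present. Wild-type female C57BL/6J mice of 14 months were compared with mice of 4 months, with the aim of describing single LMPP transcriptomes at each age. Per the labels' protocols, marrow of the iliac crest, femur and tibia was depleted of lineage-marked cells, and LMPPs were sorted as lineage-negative, Sca-1-positive, c-Kit-positive, CD150-negative, CD34-positive cells with high Flt3. No treatment or transgene is named. Cells were captured and their cDNA amplified on a Fluidigm C1 chip, a microfluidic device that isolates cells in separate chambers. No animal is named, so each age is 1 sample, cells are not replicates, and no test between the ages was possible.

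Myc is a transcription factor that, with its partner Max, binds the E-box CACGTG and drives genes of ribosome production and growth in many dividing cells. Ribosome production starts in the nucleolus, where RNA polymerase I transcribes the precursor of ribosomal RNA. Small nucleolar RNAs (snoRNAs) then guide its modification: box C/D particles carry the methyltransferase fibrillarin (Fbl) with Nop56 and Nop58, and box H/ACA particles carry the pseudouridine synthase dyskerin (Dkc1), with Nolc1 as a chaperone. Nucleophosmin (Npm1) and nucleolin (Ncl) are abundant nucleolar proteins, Polr1b is the second largest subunit of RNA polymerase I, and Odc1, the rate-limiting enzyme of polyamine synthesis, is a long-known Myc target outside the nucleolus.

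Several of these genes carry snoRNAs in their own introns. GENCODE vM21 (build GRCm38, the build named mm10 in the submitters' processing notes) annotates 14 snoRNA genes within introns of 5 of the genes, 5 of them in Nop56, 4 in Nop58, 3 in Ncl, 1 in Dkc1 and 1 in Odc1. The following 4 are examples of the box C/D type (the first 3) and of the box H/ACA type (Snora75), all holding the exact letters searched for. Capitals mark the exact letters TGATGA (box C) within the first 20 bases and CTGA (box D) within the last 15 bases of the first 3, and ACA within the last 8 bases of Snora75, each read on the strand of the snoRNA and 5′ to 3′.
Snord110, in Nop56, chr2:130275506-130275573, plus strand: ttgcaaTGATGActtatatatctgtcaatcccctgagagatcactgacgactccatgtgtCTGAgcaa
Snord11, in Nop58, chr1:59704790-59704873, plus strand: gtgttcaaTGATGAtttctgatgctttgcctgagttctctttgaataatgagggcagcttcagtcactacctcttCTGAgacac
Snord82, in Ncl, chr1:86356261-86356330, minus strand: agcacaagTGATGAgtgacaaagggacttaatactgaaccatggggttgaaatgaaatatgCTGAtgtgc
Snora75, in Ncl, chr1:86351169-86351301, minus strand: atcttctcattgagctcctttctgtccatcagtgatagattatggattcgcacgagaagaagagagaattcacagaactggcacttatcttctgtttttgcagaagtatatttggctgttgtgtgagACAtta
Of the 454 annotated snoRNAs of 60 to 100 bases, 63.9% held both exact boxes in these windows, and of the 866 of 120 to 150 bases, 64.5% held the ACA. Among those of the host genes not shown, Snord57 in Nop56 lacked the exact TGATGA and Snord70 in Nop58 lacked both boxes in these windows. All 14 have a row in the table, and 11, none longer than 118 bases, were listed at 0 in every kept cell. The other 3, of 133 bases or more, were above 0 in 10 cells (Gm24451 in Nop56), 6 cells (Snora75) and 4 cells (Gm22748 in Odc1). The same split by length held for snoRNAs at large: 0 of the 569 rows of up to 118 bases were above 0 in a kept cell, against 64 of the 315 rows of 133 bases or more. The values of the host genes given here are therefore values of their messenger RNAs and say nothing of the snoRNAs.

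The messenger RNA of Npm1 has near-identical pseudogene copies, which matters for reading its level. A stretch of its coding sequence, bases 11 to 110 counted from the start codon, is set beside the same stretch of the processed pseudogene Gm12583 (chr3:37108174-37109026, plus strand), the copy detected in most cells, with the 10 differing bases in capitals. It was chosen as a gap-free stretch of 100 coding bases with the most differences. Over their whole alignment of 838 bases the 2 sequences were 92.4% identical.
Npm1: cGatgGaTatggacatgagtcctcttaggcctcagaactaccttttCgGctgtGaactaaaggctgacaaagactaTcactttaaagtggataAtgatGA
Gm12583: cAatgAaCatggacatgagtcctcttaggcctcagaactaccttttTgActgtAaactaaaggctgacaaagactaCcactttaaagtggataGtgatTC
The 6 Npm1 copies with a row in the table together held 0.415% of the mean Npm1 level at 14 months and 0.498% at 4 months, so little TPM was assigned to them. Odc1 had 9 copies in the table, which held 4.44% of its level at 14 months and 9.24% at 4 months, the largest shares among the 10 genes. Dkc1, Nop56 and Fbl had 1, 3 and 2 copies in the table, with 0.873%, 0.0545% and 0.430% of the gene's level at 14 months and 4.33%, 1.17% and 2.48% at 4 months. How reads were shared between a gene and its copies is not stated. No such copy of Myc, Nop58, Nolc1 or Polr1b was found, and the 1 copy of Ncl has no row in the table.

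The table gives TPM, a transcript abundance scaled for transcript length and to the same total in every cell, so the number of reads behind a value is unknown. Detection means a TPM of 1 or more, and columns with 1000 or more detected genes were used, 66 of 84 columns at 14 months and 64 of 84 at 4 months. The kept cells had a median of 3281 genes detected at 14 months (range 1021 to 6160) and 3974.5 at 4 months (range 1066 to 6848), and a median of 17.7% and 12.4% of TPM in mitochondrial transcripts. The 14-month columns carry 1 of 2 set numbers, 4 (29 kept cells) or 5 (37 kept cells), whose meaning is not given, and the 4-month columns carry none. Age and capture cannot be told apart, so values of each set stand beside the pooled ones. Of the genes for proteins the sort selected for, Flt3 was detected in 92.4% of 14-month and 100% of 4-month cells, Cd34 in 87.9% and 89.1%, Kit in 53.0% and 67.2% and Ly6a (Sca-1) in 37.9% and 39.1%. Of the genes for proteins selected against, Slamf1, Cd3e and Ly6g were detected in no kept cell, and Itgam, which encodes CD11b, was detected in 25.8% and 68.8%.

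The 10 genes did not move together between the ages. Relative to the median gene, Npm1 and Dkc1 were higher at 14 months and Nop56 and Odc1 were lower, each by more than 1 on the log2 scale, while Myc itself and the other 5 differed by less. The difference is the mean over cells of log2(TPM + 1) at 14 months minus that at 4 months. A gene was counted as measured when the mean of its shares of cells at the 2 ages was at least 10%, which held for 9224 genes, all 10 of these among them. Over the measured genes the difference had a median of -0.36, and 77% of them were lower at 14 months, as were 7 of the 10. Differences are therefore given relative to that median. So counted, 4 of the 10 lay above the median gene and 6 below it, with a median of -0.33. In each set alone 5 of the 10 lay below it, and the median was -0.20 in set 4 and 0.008 in set 5. A relative difference of 1 or more was found for 2 of the 10, against 3.37% of all measured genes, and one of -1 or less for 2 of the 10, against 5.08%. In set 4 alone 1 was higher by this rule (Npm1), against 4.59% of all measured genes, and 2 lower (Nop56 and Odc1), against 6.75%. In set 5 alone 2 were higher (Npm1 and Dkc1), against 6.63%, and 1 lower (Nop56), against 6.56%. The sign was the same in both 14-month sets for 8 of the 10, against 68.7% of all measured genes, and the exceptions were Nop58 and Fbl.

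The number of genes detected also differed between the ages, so 48 cells of each age were matched on it (medians of 3809 genes at 14 months and 3807 at 4 months). There the relative difference was 1.49 for Npm1, 2.15 for Dkc1 and -1.25 for Nop56, while that of Odc1 was -0.90, under the fold. The median over the 10 genes was then 0.034. Counting only cells in which the gene was detected, a choice made after seeing the data, all 4 came under the fold, with 0.76 for Npm1, 0.45 for Dkc1, -0.55 for Nop56 and -0.54 for Odc1. With a pseudocount of 10 Dkc1 (0.88) and Odc1 (-0.76) were under it. Genes of G2 and mitosis also stood higher at 14 months: 43 of 53 measured G2 and mitosis genes lay above the median gene, with a median relative difference of 0.66. Of 42 S phase genes 26 lay above it, with a median of 0.14, near the median gene. The summed TPM of the G2 and mitosis list ranged from 6.43 to 18389 at 14 months (median 3337) and from 84.0 to 14689 at 4 months (median 1895). Highest in the G2 and mitosis list were Ect2 (1.47), needed for cytokinesis, and Cks1b (1.46, but -0.23 in set 4 and 2.83 in set 5), and lowest were Hjurp (-0.79) and Tpx2 (-0.49). Highest in the S phase list were the primase gene Prim1 (1.58) and Tipin (1.10), and Atad2 (-0.71) was among the lowest. The part of the cell cycle in the differences was not tested.

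**Figure D1:**
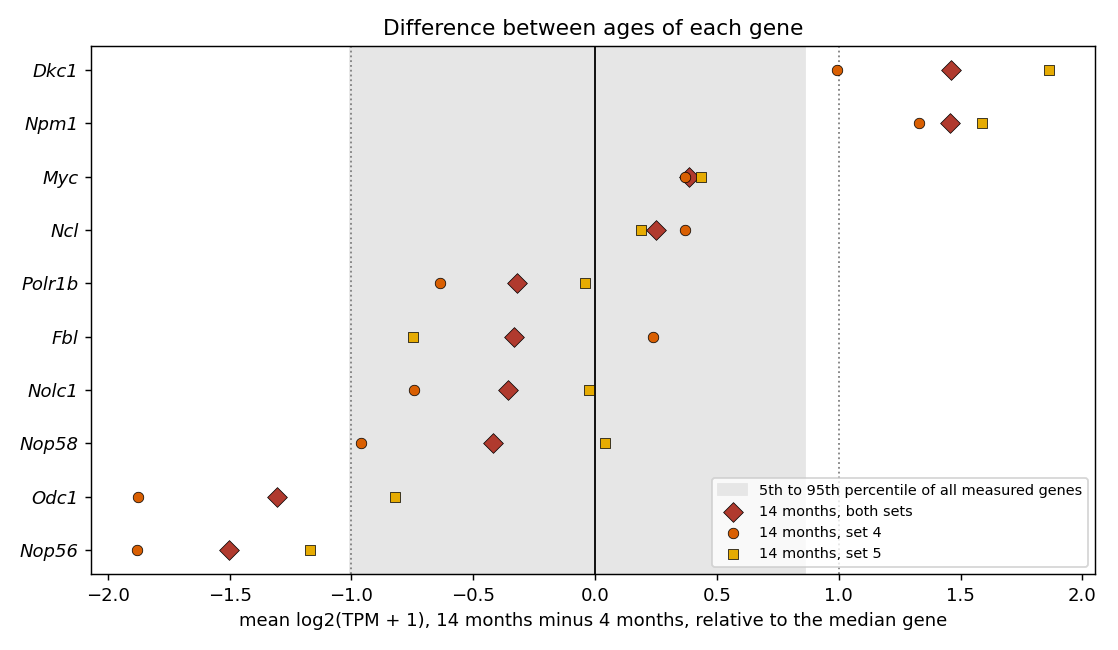
Difference between the ages of each gene, 14 months minus 4 months, in mean log2(TPM + 1) relative to the median measured gene, with both 14-month sets pooled (diamonds), set 4 (circles) and set 5 (squares); dotted lines mark the fold of 1 and -1. The grey band holds the 5th to 95th percentile of all measured genes (-1.01 to 0.86): Npm1 and Dkc1 lie to its right at 1.46 each, and Nop56 (-1.50) and Odc1 (-1.31) to its left.

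Myc was found in a similar share of cells at both ages and at widely spread levels. The gene lies at chr15:61985391-61990374 on the plus strand. It was detected in 37 of 66 cells at 14 months (56.1%, exact Clopper-Pearson 95% interval 43.3 to 68.3, which like every interval here covers counting error only) and in 38 of 64 at 4 months (59.4%, 46.4 to 71.5). Its TPM ranged from 0 to 822 at 14 months with a median of 9.63, and from 0 to 539 at 4 months with a median of 4.57. The groups overlapped over nearly their whole range, with an upper quartile of 82.4 TPM at 14 months and 104 TPM at 4 months. The means stood well above the medians, at 95.4 TPM at 14 months and 77.3 TPM at 4 months. Without the 2 highest cells of each age they were 75.2 and 64.5 TPM. Where it was detected, the median level was 65.8 TPM in 14-month cells and 73.0 TPM in 4-month cells. Mean log2(TPM + 1) was 3.46 ± 3.45 at 14 months and 3.43 ± 3.30 at 4 months (SD over 66 and 64 cells), a relative difference of 0.39, and 0.37 in set 4 and 0.43 in set 5. In the cells matched on genes detected the order of the shares was reversed, with Myc in 62.5% at 14 months and 52.1% at 4 months. Its relative difference was 0.92 there, and 0.92 with medians over all kept cells.

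Of the box C/D genes among the 10, Nop56 was the only one past the fold at 14 months. Nop56 (chr2:130274430-130279313, plus strand; host of Snord110 above) is a core protein that bridges the particle, paired with Nop58. It was detected in 51 of 66 cells at 14 months (77.3%, 65.3 to 86.7) and 61 of 64 at 4 months (95.3%, 86.9 to 99.0). Its TPM ranged from 0 to 2369 at 14 months with a median of 107, and from 0 to 2931 at 4 months with a median of 336. In 13 of the 14-month cells it was at 0, as in 3 of the 4-month cells, and above 0 the ages overlapped, with a median where detected of 301 TPM at 14 months and 377 TPM at 4 months. Mean log2(TPM + 1) was 5.90 ± 3.76 at 14 months and 7.76 ± 2.48 at 4 months, a relative difference of -1.50 (-1.88 in set 4 and -1.17 in set 5). With both sets pooled, its share of cells was the only one among the 10 whose intervals did not overlap between the ages. The margin was under 1 percentage point. Of all measured genes 8.16% had such a lower share at 14 months and 0.0867% such a higher one. Taken alone, the intervals of set 4 (72.4%, 52.8 to 87.3) and set 5 (81.1%, 64.8 to 92.0) each overlapped that of 4 months. Among the 48 cells of each age matched for gene number, Nop56 was found in 81.25% at 14 months and 93.75% at 4 months. The 3′ end of Nop56 overlaps that of Idh3b, on the other strand, by 5 bases, and whether reads were counted by strand is not given.

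Nop58, the partner of Nop56 in the particle, lies at chr1:59684971-59719044 on the plus strand. It was detected in 78.8% of cells at 14 months (67.0 to 87.9) and 93.8% at 4 months (84.8 to 98.3), with medians of 50.3 TPM (range 0 to 875) and 62.5 TPM (range 0 to 804). By set it was found in 69.0% (set 4) and 86.5% (set 5), and its relative difference of -0.42 was -0.96 in set 4 and 0.04 in set 5, so its place depended on the set. Fibrillarin, the methyltransferase of the particle, is encoded by Fbl at chr7:28169710-28179269, plus strand. Fbl was detected in 65.2% of cells at 14 months (52.4 to 76.5) and 75.0% at 4 months (62.6 to 85.0), with medians of 7.78 TPM (range 0 to 481) and 22.8 TPM (range 0 to 799). Its relative difference was -0.33, with 0.24 in set 4 and -0.75 in set 5, the opposite order of sets to that of Nop58. Fbl, Nop56 and Nop58 were detected together in 34 of 66 cells at 14 months (51.5%, 38.9 to 64.0) and 47 of 64 at 4 months (73.4%, 60.9 to 83.7). By set, all 3 were found together in 55.2% of cells in set 4 and 48.6% in set 5.

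Of the box H/ACA genes, Dkc1 was higher at 14 months and its chaperone Nolc1 was not. Dkc1 lies at chrX:75095854-75109777 on the plus strand; besides its role in snoRNA particles, dyskerin binds the telomerase RNA, and mutations of the human gene cause dyskeratosis congenita. It was detected in 86.4% of cells at 14 months (75.7 to 93.6) and 76.6% at 4 months (64.3 to 86.2). Its TPM ranged from 0 to 2679 at 14 months with a median of 164, and from 0 to 3142 at 4 months with a median of 84.8. The ranges overlapped in full, and where Dkc1 was detected the median level was 266 TPM in 14-month cells and 129 TPM in 4-month cells. Mean log2(TPM + 1) was 6.42 ± 3.36 at 14 months and 5.31 ± 3.64 at 4 months, which put it 1.46 above the median gene (0.99 in set 4 and 1.86 in set 5). Nolc1 (chr19:46075863-46085530, plus strand) was detected in 47.0% of cells at 14 months (34.6 to 59.7) and 57.8% at 4 months (44.8 to 70.1), with medians of 0.70 and 6.70 TPM and maxima of 270 and 796 TPM. Its relative difference was -0.36, with -0.74 in set 4 and -0.02 in set 5. The 3′ end of Dkc1 overlaps that of Mpp1, on the other strand, by 45 bases.

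Npm1 was the most abundant of the 10 genes and its level was higher at 14 months by about the same step in both sets. Nucleophosmin shuttles between nucleolus and cytoplasm, takes part in ribosome assembly and export, and its human gene is often mutated in acute myeloid leukaemia. Npm1 (chr11:33152287-33163206, minus strand) was detected in all 66 cells at 14 months (100%, 94.6 to 100) and 62 of 64 at 4 months (96.9%, 89.2 to 99.6). Its TPM ranged from 7.73 to 9035 at 14 months with a median of 3161, and from 0 to 4439 at 4 months with a median of 1578. The upper part of the 14-month range had no counterpart at 4 months, while the lower parts overlapped. Mean log2(TPM + 1) was 11.16 ± 1.59 at 14 months and 10.06 ± 2.15 at 4 months, a relative difference of 1.46 (1.33 in set 4 and 1.59 in set 5). With TPM of its pseudogene copies added, it was 1.37.

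Nucleolin, an RNA-binding protein that acts on the nascent ribosomal RNA precursor, gave a contrast to nucleophosmin. Ncl (chr1:86344719-86359400, minus strand; host of Snord82 and Snora75 above) was detected in 64 of 66 cells at 14 months (97.0%, 89.5 to 99.6) and all 64 at 4 months (100%, 94.4 to 100). Its TPM ranged from 0 to 835 at 14 months with a median of 146, and from 3.46 to 456 at 4 months with a median of 138. The ages overlapped and the middle of the range was alike. Its relative difference was 0.25 (0.37 in set 4 and 0.19 in set 5), and its spread over cells, an SD of 1.93 at 14 months and 1.20 at 4 months on the log2 scale, was the smallest of the 10 at 4 months.

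**Figure D2:**
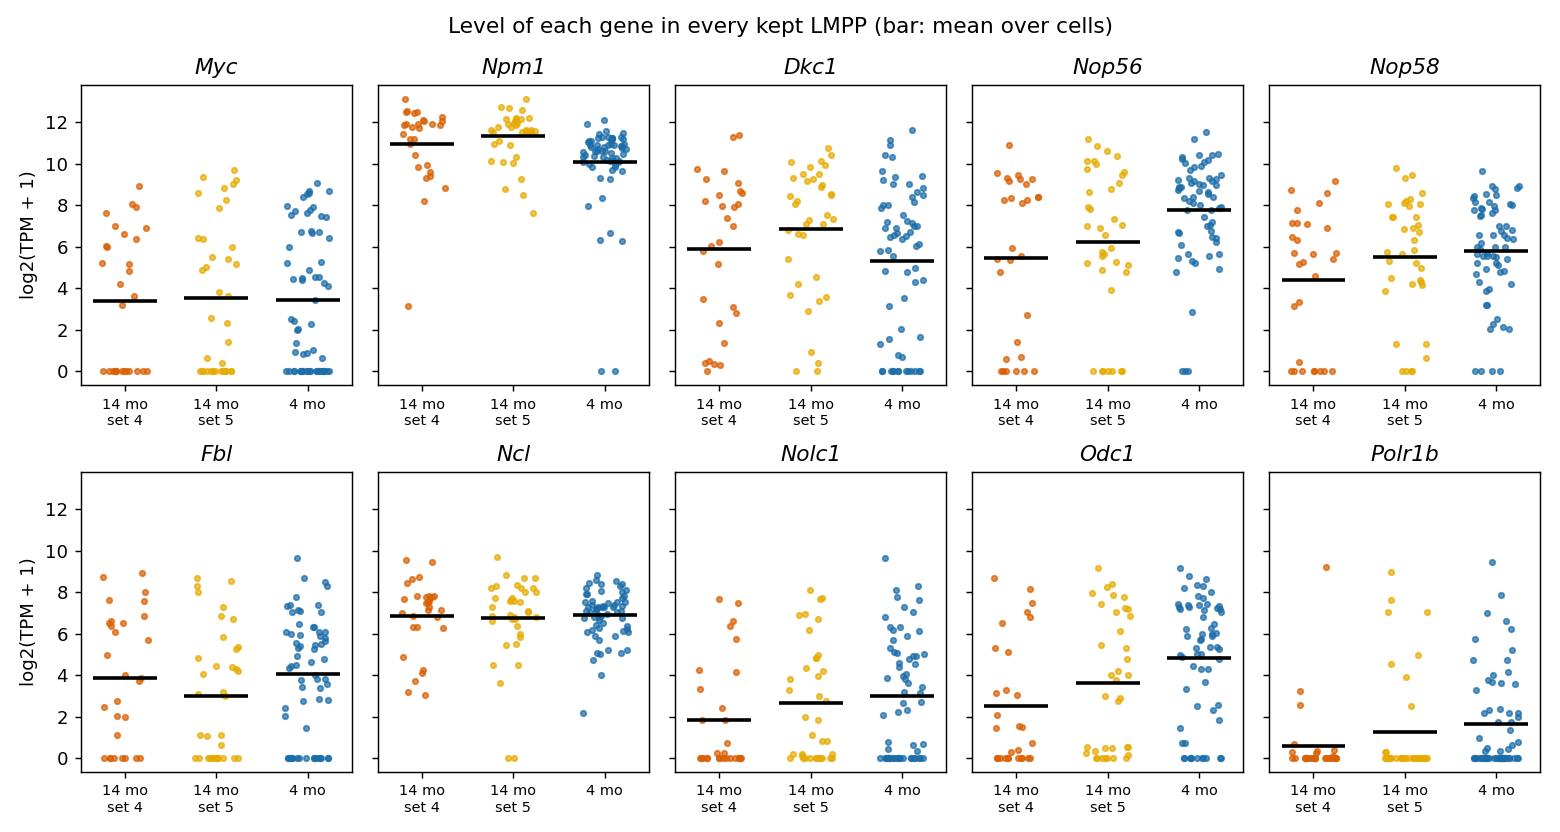
Level of each of the 10 genes in every kept cell, as log2(TPM + 1), for 14-month set 4 (29 cells), 14-month set 5 (37 cells) and 4 months (64 cells); each point is a cell and the bar is the mean. Npm1 and Ncl are found in nearly every cell, while the other 8 each have cells at 0 in every group, with Nop56 showing more 14-month cells at 0 (13, against 3 at 4 months).

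Polr1b and Odc1 were both detected in a smaller share of cells at 14 months. Polr1b (chr2:129100995-129126594, plus strand) was the least often detected of the 10, in 11 of 66 cells at 14 months (16.7%, 8.62 to 27.9) and 25 of 64 at 4 months (39.1%, 27.1 to 52.1). Its mean of 24.7 TPM at 14 months and 23.0 TPM at 4 months rested on few cells, and without the 2 highest of each age it was 8.47 and 8.94 TPM. Its relative difference was -0.32 over all cells (-0.64 in set 4 and -0.04 in set 5), and 1.51 when only the 11 and 25 cells with it were used. By set it was found in 3 of 29 cells (set 4) and 8 of 37 cells (set 5). Odc1 (chr12:17544794-17551505, plus strand) was detected in 37 of 66 cells at 14 months (56.1%, 43.3 to 68.3) and 51 of 64 at 4 months (79.7%, 67.8 to 88.7). Its TPM ranged from 0 to 575 at 14 months with a median of 4.47, and from 0 to 574 at 4 months with a median of 45.0. The highest cells were thus alike and the middle of the range was not. Where Odc1 was detected, its median level was 42.1 TPM in 14-month cells (33.8 in set 4 and 91.7 in set 5) and 64.3 TPM in 4-month cells, so that set 5 lay above 4 months there. In the cells matched on genes detected its share was 64.6% at 14 months and 72.9% at 4 months. Mean log2(TPM + 1) was 3.14 ± 3.17 at 14 months and 4.80 ± 2.91 at 4 months, a relative difference of -1.31 (-1.88 in set 4 and -0.82 in set 5).

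**Figure D3:**
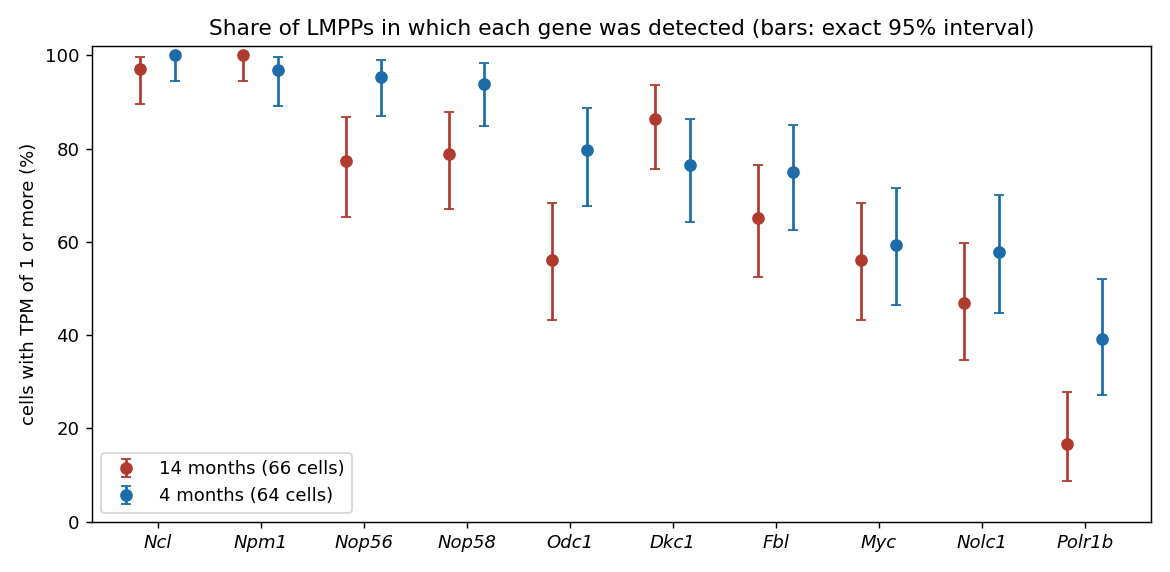
Share of kept cells with a TPM of 1 or more for each gene, with exact 95% intervals, at 14 months (66 cells, both sets pooled) and at 4 months (64 cells). The 14-month share is lower for 8 of the 10 genes, as it is for 81.4% of all measured genes, and higher for Npm1 and Dkc1, and the intervals of the ages lie apart only for Nop56.

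Because TPM is scaled for length, levels can be set side by side between genes. By mean TPM, the order at 14 months was Npm1 (3220), Dkc1 (380), Nop56 (364), Ncl (187), Nop58 (130), Myc (95.4), Fbl (63.9), Odc1 (63.4), Nolc1 (29.3) and Polr1b (24.7). At 4 months it was Npm1 (1596), Nop56 (494), Dkc1 (287), Ncl (153), Nop58 (137), Odc1 (94.3), Myc (77.3), Fbl (67.9), Nolc1 (46.8) and Polr1b (23.0). Neighbours in these orders overlapped in their cells, and the 14-month order is that of the pooled sets. In set 4 Fbl (76.6) stood above Myc (64.8) and Odc1 (45.0), and in set 5 Nop56 (421) stood above Dkc1 (387) and Odc1 (77.9) above Fbl (54.0). Within a cell, Npm1 exceeded Nop56 in 63 of 66 cells at 14 months and 57 of 64 at 4 months, and Nop56 exceeded Nop58, its partner in the same particle, in 40 of 66 cells at 14 months and 50 of 64 at 4 months.

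A median of 7 of the 10 genes was detected per cell at 14 months (range 3 to 10) and 8 at 4 months (range 3 to 10). All 10 were found in 4 cells at 14 months and 10 cells at 4 months. Cells with 8 or more made up 43.9% at 14 months (31.7 to 56.7) and 57.8% at 4 months (44.8 to 70.1). This number followed the number of all genes detected in the cell, with a Spearman rho of 0.70 over 66 cells at 14 months and 0.71 over 64 cells at 4 months.

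Over the pooled cells of an age, the genes with the highest correlation with Myc were the box C/D genes at 14 months and Nop58 and Dkc1 at 4 months. Given the number of genes detected, the highest rank-partial rho were those of Nop56 (0.37) and Fbl (0.23) at 14 months and of Nop58 (0.22) at 4 months. The correlations are descriptions, since depth varies from cell to cell and every cell has the same fixed TPM total. At 14 months the pooled cells also mix 2 sets whose meaning is not given. At 14 months the Spearman rho with Myc over 66 cells was 0.43 for Nop56, 0.33 for Nop58 and 0.33 for Fbl, so that 3 of the other 9 genes reached 0.3, as did 4.91% of all measured genes. Over 64 cells at 4 months 2 of 9 did, Nop58 (0.34) and Dkc1 (0.30), as did 7.28% of all measured genes. Pearson's r of the log2 values with Myc was 0.47 at 14 months and 0.21 at 4 months for Nop56, and 0.36 and 0.35 for Nop58. Nop56 had a rho of 0.46 in set 4 and 0.43 in set 5, against 0.20 at 4 months, and Fbl had 0.39 in set 4 and 0.32 in set 5, against 0.11 at 4 months. Nop58 differed between the sets, with 0.57 in set 4 and 0.13 in set 5.

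The rest of the 9 had lower values at 14 months over the pooled cells, some of which differed between the sets. Npm1 had a rho with Myc of 0.09 at 14 months and 0.18 at 4 months, and Ncl had 0.10 and 0.07, near the median of all measured genes at each age (0.10 and 0.12). Nolc1 had 0.30, just under the 0.3 mark, at 14 months (0.12 in set 4 and 0.43 in set 5) and -0.07 at 4 months. Odc1, the textbook Myc target among the 10, had -0.13 at 14 months (0.13 in set 4 and -0.33 in set 5) and 0.28 at 4 months. The median over the 9 genes was 0.25 at 14 months (0.28 in set 4 and 0.13 in set 5) and 0.18 at 4 months. Myc itself was higher in cells with more genes detected, with a rho of 0.34 at 14 months and 0.40 at 4 months. Given the number of genes detected, the median rank-partial rho of the 9 was 0.17 at 14 months and 0.04 at 4 months. Myc also had a rho of 0.34 at 14 months and 0.38 at 4 months with the S phase list, and of 0.20 and 0.22 with the G2 and mitosis list.

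Joint detection gave the same picture for Nop56. At 14 months Nop56 was detected in all 37 cells with Myc and in 48.3% of the 29 cells without it. The contrast was seen in set 4 (100% of 16 cells with Myc and 38.5% of 13 without) and in set 5 (100% of 21 and 56.3% of 16). At 4 months Nop56 was detected in 94.7% of the 38 cells with Myc and 96.2% of the 26 without. Odc1 was found in 48.6% of the cells with Myc and 65.5% of those without at 14 months, against 86.8% and 69.2% at 4 months. That opposite order came from set 5 (42.9% with Myc and 81.3% without), since set 4 (56.3% and 46.2%) had the order seen at 4 months. Cells with Myc had more genes detected than cells without, a median of 3831 against 2798 at 14 months and 4365 against 3570 at 4 months. The part of detection in these shares was not tested.

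**Figure D4:**
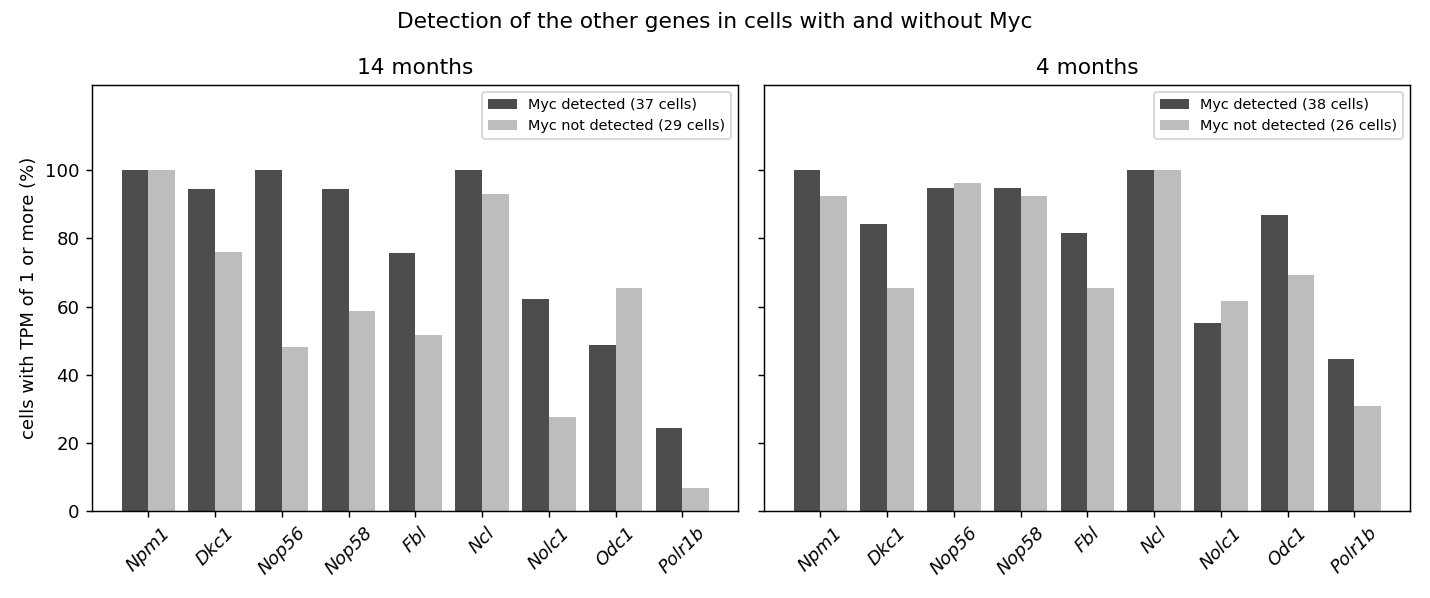
Share of cells with each of the other 9 genes at a TPM of 1 or more, for cells with Myc detected (dark bars) and cells without (light bars), at 14 months (37 and 29 cells) and at 4 months (38 and 26 cells). Nop56 stands at 100% and 48.3% at 14 months and at 94.7% and 96.2% at 4 months, and the order of the bars for Odc1 is opposite at the 2 ages, which holds for set 5 but not for set 4.

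Among each other, the 45 pairs of the 10 genes had rho between -0.13 and 0.43 at 14 months (median 0.22) and between -0.07 and 0.52 at 4 months (median 0.25). Over the pooled 14-month cells the 4 negative pairs all held Odc1, which did not hold within the sets. Set 4 had 4 negative pairs, among them Npm1 with Polr1b (-0.12). Set 5 had 12, among them Nop56 with Ncl (-0.23). The closest pair at 4 months was Npm1 with Dkc1 (0.52), which had 0.23 at 14 months (0.15 in set 4 and 0.31 in set 5). Within the box C/D particle, Nop56 with Nop58 had 0.32 at 14 months (0.53 in set 4 and 0.11 in set 5) and 0.34 at 4 months. Nop58 with Fbl had 0.32 at 14 months (0.54 in set 4 and 0.17 in set 5) and 0.15 at 4 months. Nop56 with Fbl had 0.35 at 14 months, with 0.36 in each set, and 0.14 at 4 months.

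The genes most like Myc across cells were looked for by the mean of the rho values in set 4, set 5 and at 4 months. Ranked were the 3175 other measured genes, named or not, found in at least 30% of cells in each. The first 5 were Bin2 (mean rho 0.43), Mettl23 (0.41), Dad1 (0.41), Naa10 (0.40) and Kcnn4 (0.40). Bin2 had 0.53 in set 4 and 0.67 in set 5, against 0.09 at 4 months, so its place rested on the 14-month cells. Nop56 came at rank 21 (0.36) and Nop58 at rank 31 (0.35), ahead of Fbl (228), Dkc1 (261), Nolc1 (1370), Npm1 (1985), Ncl (2085) and Odc1 (2833).

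The surrounding pathways showed the same mixture, with most of their genes near the median gene. Over all measured genes 3.37% were past the fold higher and 5.08% lower, the shares to set beside the counts in each list. In the box C/D list, which adds the shared protein Snu13 and the assembly factors, 5 of 11 measured genes lay above the median gene and 6 below. Its median was -0.11 (0.06 in set 4 and -0.09 in set 5). Snu13 was higher (1.18), and the assembly ATPase Ruvbl1 was lower (-1.48, with -2.23 in set 4 and -0.85 in set 5) beside Nop56, while its partner Ruvbl2 stood at 0.84. In the box H/ACA list 6 of 8 lay above, with a median of 0.12 (-0.01 in set 4 and 0.24 in set 5) and none past the fold other than Dkc1. There Shq1, which chaperones dyskerin, stood at 0.69, and Tcof1, whose human form is mutated in Treacher Collins syndrome, at -0.18. For RNA polymerase I and its factors 13 of 18 measured genes lay below, with a median of -0.20 (-0.09 in set 4 and -0.20 in set 5). There Polr1d, a subunit shared with RNA polymerase III, stood at 1.01, and Polr2e, a subunit of all 3 nuclear polymerases, at -1.04. The promoter factor genes Taf1d and Taf1b stood at 0.66 and -0.64.

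The lists for the small subunit processome and for large subunit assembly had medians near the median gene. Of 33 small subunit processome genes 15 lay above it and 18 below, with a median of -0.12 (-0.32 in set 4 and 0.06 in set 5). Past the fold higher were 2 of the 33, against 3.37% of all measured genes: Utp4 (1.15, but -0.36 in set 4 and 2.37 in set 5) and Noc4l (1.13). Lower was 1, Wdr75 (-1.05), against 5.08%, and Utp15 was next lowest (-0.80). Of 41 large subunit assembly genes 21 lay above and 20 below, with a median of 0.02 (-0.11 in set 4 and 0.15 in set 5). None was past the fold higher, against 3.37% of all measured genes. Past it lower were 5 of the 41, against 5.08%, led by the methyltransferase Ftsj3 (-1.41) and Rrp1b (-1.16). Lyar (0.98) and Brix1 (0.87) were at the other end. In the nucleophosmin family, Npm3 stood at 0.29 beside Npm1.

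Genes around Myc itself were as divided. Of 10 measured genes of the Myc network, which holds its partners and antagonists, 5 lay on each side of the median gene and none was past the fold; the repressor Mnt stood at -0.32 and Mlxip at -0.53, with Mlx and Myc highest at 0.39 each. Of 32 measured Myc target genes outside ribosome synthesis 18 lay above and 14 below, with a median of 0.06 (-0.10 in set 4 and 0.14 in set 5). The transferrin receptor gene Tfrc was the only one past the fold (1.37), followed by Hnrnpa1 (0.99), and the spermidine synthase gene Srm (-0.74) and the chaperonin gene Hspd1 (-0.74) were lowest. Of 13 measured polyamine genes 7 lay below, with Odc1 and Srm lowest. Sat1, which acetylates polyamines for breakdown, was highest (1.13, with 2.12 in set 4 and 0.39 in set 5), and Eif5a, whose protein carries the polyamine-derived hypusine, stood at 0.55.

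**Figure D5:**
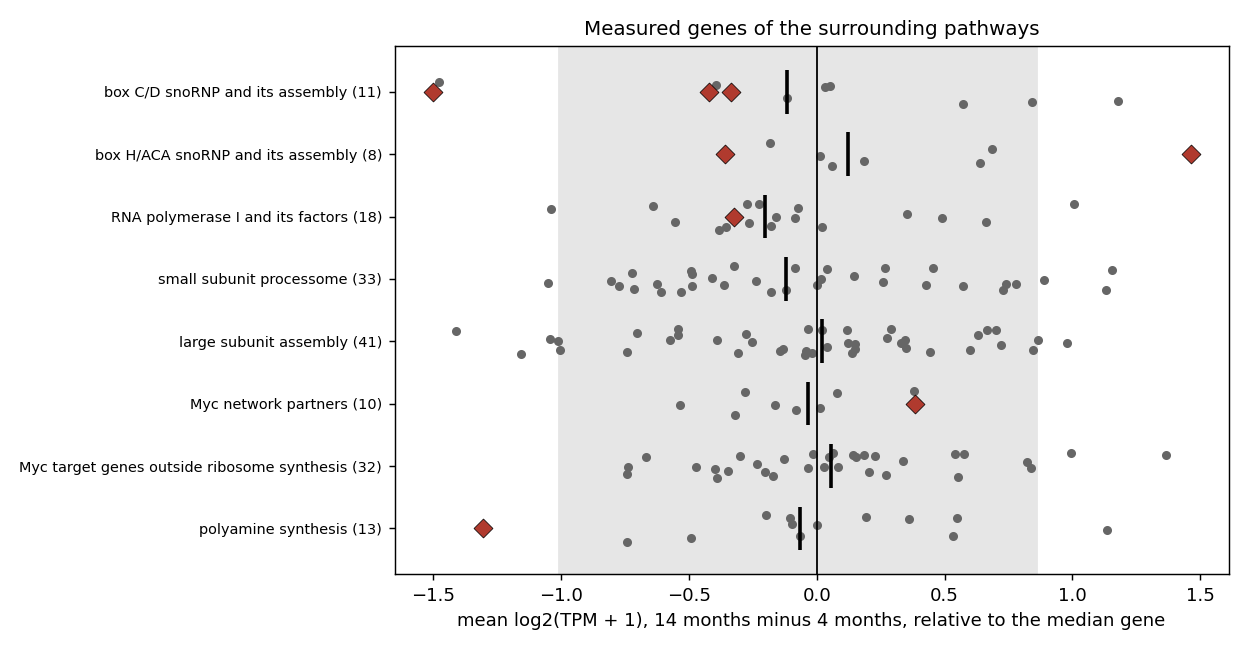
Relative difference between the ages, 14 months minus 4 months, in mean log2(TPM + 1) for each measured gene of 8 surrounding pathway lists; each grey point is a gene, red diamonds are those of the 10 genes that a list holds, vertical bars are list medians and the grey band is the 5th to 95th percentile of all measured genes. The lists spread on both sides of 0, with medians between -0.20 and 0.12 when both 14-month sets are pooled.

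For the E-box that Myc and Max bind, the promoter windows of RefSeq (build GRCm38.p6, 250 bases before to 50 bases after the gene start) were searched for CACGTG, which reads the same on both strands. The table held 7 of the 10 genes: Nop58, Ncl, Polr1b, Nop56, Odc1, Nolc1 and Dkc1. None of these 7 windows held the 6 letters, which 7.15% of the 32851 promoters did, and this says only that the exact letters are not in these windows.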

How the data were processed

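RNA of single LMPPs was measured at 14 and 4 months. The deposited table holds TPM values made by the authors. The submitters' processing notes name Bowtie2 2.2.0, RSEM 1.2.12 and build mm10, and settings are not given in the sources used here. It has 168 columns, 1 per cell, 84 for each age, against 83 labelled cells at the older age and 84 at the younger. No column was left unused (0 of unknown sample). Each column sums to 1000000, so depth is unknown. Columns with under 1000 genes at TPM 1 or more were left out (18 of 14 months and 20 of 4 months). No doublet caller was run, since TPM are not counts.

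Means and SDs are of log2(TPM + 1), a pseudocount of 1, which understates the change of low genes. Intervals are exact (Clopper-Pearson). With 1 sample per age no p-value was computed, and a relative difference of 1 or -1 served as the rule of size. Gene identifiers were matched to symbols for 37607 rows. All 10 genes are named, with the 2 highest and 2 lowest measured genes of each pathway list (an S phase gene so chosen is not reported here) and the 5 genes most like Myc. The genes and lists were chosen with earlier results of these data known. Pseudogene copies were found with blastn 2.17.0 at 90% identity over 200 bases. The calculation was tested on simulated data. The software was scipy 1.17.1, pandas 2.3.3, numpy 2.4.6 and matplotlib 3.10.9 under Python 3.11.15. Alternatives changed the pseudocount, thresholds, normalization, cells and sets, and 2 were added after seeing the data, the summing of copies and the use of only cells with the gene.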

Additional observations from a re-analysis of the deposited data

Results flagged for a closer look

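The 38 columns left out for having under 1000 genes detected still held some of the 10 genes, in more columns than the 3 that a count of 0 allows. Npm1 was at a TPM of 1 or more in 16 of the 18 left-out columns of 14 months and 10 of the 20 of 4 months. Ncl was in 14 of 18 at 14 months and 10 of 20 at 4 months. At 14 months Dkc1 was in 9 of 18 and Nop58 in 6 of 18, and at 4 months Nop56 was in 6 of 20 and Myc in 4 of 20. These columns had 356 to 998 genes detected at 14 months and 1 to 916 at 4 months.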

How the results depend on the processing

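The number of the 10 genes below the median gene stayed within 1.5 times its value of 6 in all 14 alternatives. The relative differences of Npm1 (0.76 to 2.44), Dkc1 (0.45 to 2.15), Nop56 (-1.89 to -0.55), Odc1 (-3.10 to -0.54) and Myc (0.13 to 0.92) kept their sign in all 15, while Nop58 ran from -0.97 to 0.33. With only the cells that had the gene, an alternative added after seeing the data, the first 4 came to lie under the fold. The number higher past the fold was 1 with a pseudocount of 10, with set 4 alone and with medians over cells. The number lower was 1 with a pseudocount of 10, with quantile normalization (where Odc1 stood at -0.91), with cells matched on genes detected and with set 5 alone, and 4 with medians over cells. The median relative difference was 0.074 with all columns and 0.034 in matched cells. The median number of genes per cell at 14 months was 8 with TPM above 0, 6 with TPM of 10 or more, 8 in cells with at least 2000 genes and 8 in matched cells, and at 4 months it was 9 with TPM above 0, 7 with TPM of 10 or more and 7 with all columns. The median rho with Myc at 14 months was -0.011 in cells with Myc, 0.089 with quantile normalization and 0.13 in set 5 alone, and at 4 months 0.042 given the genes detected, 0.35 with all columns and 0.082 with quantile normalization. The cause was not tested. No paired analysis was possible because each age is 1 sample and the replicate numbers only name cells. Depth is unknown and limits the calls of genes at low levels.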
